A study of Rattus norvegicus with 14 samples.

Results

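GATA transcription factors are DNA-binding proteins with zinc fingers that recognise short sequences around the letters GATA. Gata1, Gata2 and Gata3 act mainly in blood, endothelial and neural cells, and Gata4 and Gata6 in heart, gonad and endoderm. In the mouse blastocyst Gata6 and then Gata4 mark the hypoblast, also called primitive endoderm, the layer that gives rise to yolk sac cells. They act there above genes for basement membrane and for other endoderm factors. The members described here are the 5 genes Gata1, Gata2, Gata3, Gata4 and Gata6, chosen by name, of 16058 genes with a current RefSeq symbol on the array. They had 7 probes, 3 of them for Gata6, among 41012 distinct probes, and 6 of the 7 passed the filter on dim signals. Gata5 had no probe of that name here.

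RNA of 7 rat cell lines grown in culture was hybridised to 14 one-colour Agilent arrays, arrays A and B for each line. The blastocyst lines were Fi1 (Fischer, male), Fi2 (Fischer, female) and Wk8 (Wistar-Kyoto, female). The bone marrow lines were CL19 (Fischer, female), 3C3 (Fischer, male) and RMAPC-1 (Fischer, male). The study names these 6 lines hypoblast stem cells, and they are called stem cell lines below. The control was RClone-2 (Fischer, male), a mesenchymal line and the only one of its kind, so its own spread between lines was not measured. The study asked whether lines of both origins carry the features of early hypoblast. No treatment is given, and each line is a single derivation. The labels do not say whether arrays A and B came from separate cultures, so the line was the unit of replication.

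A value is the log2 of the processed signal minus the log2 of the 75th percentile of the same array, so that 0 is a probe at that percentile. That percentile lay higher for blastocyst lines (745.7 to 891.5 signal units) than for bone marrow lines (558.9 to 660.1) or RClone-2 (599 and 630.7). The flag for a spot well above background is the one of the scanner software. Levels of different probes are not compared. Arrays A and B of RMAPC-1 differed more than those of the other lines, with 16.6% of tested probes over 1 apart on the log2 scale against 3.07% to 6.34% elsewhere. Slides 1 and 3 carried the blastocyst lines with CL19. Slides 2 and 4 carried RClone-2 with 3C3 and RMAPC-1. The labelled types carried most of their markers. The summed relative signal of 7 primitive endoderm markers was 256 to 373 in the stem cell lines and 2.36 to 2.71 in RClone-2. That of 8 measured mesenchymal markers was 0.633 to 1.33 and 285 to 353. Such sums follow their brightest markers. By gene, 6 endoderm markers were called higher and 7 mesenchymal markers lower in the stem cell lines. The endoderm marker Dab2 did not pass, and the mesenchymal marker Lum was above background on no array. In RClone-2, 6 of the 7 endoderm markers were above background on both arrays. In such bulk samples fewer expressing cells and less RNA per cell cannot be told apart.

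Probes for 2 members are shown as examples of members that were higher in the stem cell lines. Each is the 60-base probe sequence in the scanner tables, 5′ to 3′, in lower case throughout since no motif is marked. The Gata1 probe (A_44_P255280, accession NM_012764) maps to chrX:26570758-26571261 in build rn4, a span of 504 bases for 60 probe bases. The Gata6 probe (A_44_P445300, NM_019185) maps to chr18:2512492-2512551. No exon annotation of that build was used here.
Gata1 A_44_P255280: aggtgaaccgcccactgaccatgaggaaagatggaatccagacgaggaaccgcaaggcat
Gata6 A_44_P445300: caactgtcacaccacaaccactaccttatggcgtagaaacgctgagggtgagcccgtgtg
The other Gata6 probes lie at chr18:2534368-2534427 (A_44_P415349) and chr18:2534127-2534186 (A_44_P415354). Gata4 was read by A_42_P486144 (NM_144730) at chr15:42473004-42473063. Gata2 was read by A_44_P403866 (NM_033442) at chr4:122287400-122287459. Gata3 was read by A_44_P383310 (NM_133293) at chr17:79991712-79991771. None of the 7 probes was saturated or marked as an outlier on any array.

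Gata4 and Gata6, the hypoblast members of the family, stood far above the mesenchymal line in all 6 stem cell lines. Gata1, the erythroid and megakaryocytic factor, was also high in all 6 and was not above background in RClone-2. It was read by 1 probe. Whether that probe, or any other probe of the members, also reads other family members was not tested. Gata2, a factor of blood progenitors and endothelium, went the other way and was higher in RClone-2. Gata3, a factor of T cells and trophoblast, was above background on 1 of the 14 arrays. The plot of GATA factor probes in the 7 lines gives every array.

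**Figure D1:**
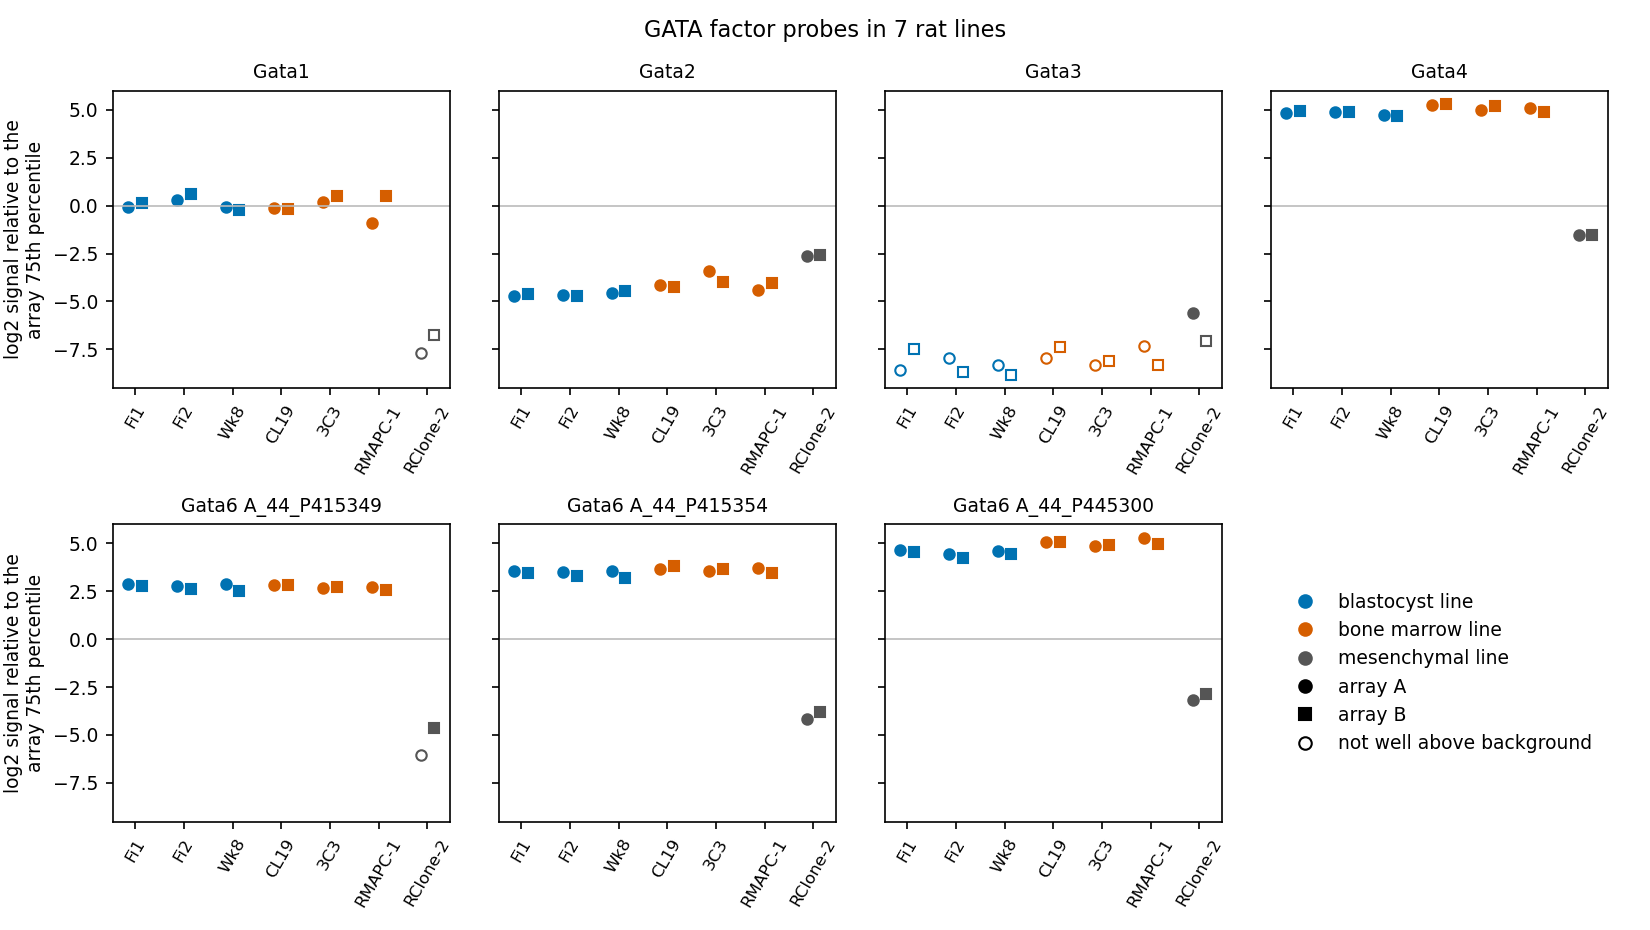
Log2 signal relative to the 75th percentile of the array (vertical axis) for each of the 7 probes in each line (horizontal axis), with array A as a circle and array B as a square, and open symbols for spots not well above background. Gata4 and the 3 Gata6 probes lie between 2.51 and 5.31 on the 12 stem cell arrays and at -1.51 or lower in RClone-2; panels show different probes, whose levels are not comparable with each other.

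Gata4 read 4.85 and 4.93 on arrays A and B of Fi1, 4.89 and 4.90 in Fi2, and 4.76 and 4.69 in Wk8. It read 5.28 and 5.30 in CL19, 5.002 and 5.19 in 3C3, and 5.07 and 4.87 in RMAPC-1. In RClone-2 it read -1.51 and -1.55, which was still well above background on both arrays. The 12 stem cell arrays lay between 4.69 and 5.30, and none came near RClone-2. The stem cell lines were 90.8-fold higher (log2 difference 6.51 ± 0.17, SE, 6 lines against 1, limma adjusted p = 3.07e-06). The blastocyst lines alone were 82.3-fold and the bone marrow lines 100.2-fold above RClone-2.

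Gata6, read by probe A_44_P445300, was 4.63 and 4.57 in Fi1, 4.43 and 4.26 in Fi2, and 4.58 and 4.42 in Wk8. It was 5.07 and 5.05 in CL19, 4.87 and 4.90 in 3C3, and 5.31 and 4.95 in RMAPC-1. In RClone-2 it was -3.20 and -2.88. All bone marrow arrays lay above all blastocyst arrays, and RClone-2 lay far below both. Probe A_44_P415354 ran from 3.18 to 3.81 on the 12 stem cell arrays, with a median of 3.56, and was -4.17 and -3.79 in RClone-2. Probe A_44_P415349 ran from 2.51 to 2.90, with a median of 2.76, and was -6.07 (not well above background) and -4.63 in RClone-2. With each of the 3 probes the stem cell lines were higher than RClone-2, by 222-fold, 182-fold and 272-fold in the order given. The log2 differences were 7.79 ± 0.17, 7.51 ± 0.15 and 8.09 ± 0.15 (SE, limma adjusted p = 1.79e-06, 1.42e-06 and 1.26e-06). In RClone-2 A_44_P415349 was above background on 1 of 2 arrays. With normexp the log2 differences were smaller, at 6.93, 6.17 and 5.66 in the same order, and all 3 calls held.

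Gata1 read -0.08 and 0.16 in Fi1, 0.30 and 0.58 in Fi2, and -0.06 and -0.21 in Wk8. It read -0.14 and -0.16 in CL19, 0.21 and 0.49 in 3C3, and -0.91 and 0.50 in RMAPC-1. In RClone-2 it read -7.68 and -6.74 and was not well above background on either array. The processed signal was 296.6 to 1202 on the stem cell arrays and 2.92 to 5.90 in RClone-2. The stem cell lines were at least 90.0-fold higher, where the bound sets each RClone-2 array at the lowest signal called above background there. The same bound was at least 93.8-fold for the blastocyst lines and at least 86.4-fold for the bone marrow lines. The fitted difference was 7.27 ± 0.30 on the log2 scale (SE, limma adjusted p = 1.39e-05). Background correction by normexp, with an offset of 50, gave 3.21 and kept the call.

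Gata2 was the member with the opposite sign. It read -4.72 and -4.63 in Fi1, -4.68 and -4.69 in Fi2, and -4.56 and -4.45 in Wk8. It read -4.16 and -4.23 in CL19, -3.43 and -3.96 in 3C3, and -4.38 and -4.02 in RMAPC-1. In RClone-2 it read -2.63 and -2.58, above every stem cell array. The probe was dim, with a processed signal of 26.9 to 54.7 on the stem cell arrays and 96.6 to 105.3 in RClone-2, yet well above background on all 14. The stem cell lines were 3.29-fold lower (log2 difference -1.72 ± 0.23, SE, limma adjusted p = 0.00186). With normexp the difference was -0.77 with an adjusted p of 0.192, so the call was lost. Within slides 2 and 4, 3C3 and RMAPC-1 differed from RClone-2 by -1.34 with a limma adjusted p of 0.0594.

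Gata3 was not well above background on any of the 12 stem cell arrays, where it read -8.83 to -7.31 with a median of -8.21. In RClone-2 array A read -5.61 and was above background, and array B read -7.07 and was not. With 1 array of RClone-2 measured and none of the others, it was not tested and no fold is given. The unfiltered fit is in the section on processing choices.

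Of the 6 tested probes, 5 were higher in the stem cell lines and 1, Gata2, was lower. Over all tested probes 25.1% were higher and 22.2% lower in that comparison, and the median difference was 0.04. The same 5 and 1 were called for the blastocyst lines against RClone-2, where 22.8% of all probes were higher and 25.6% lower. They were also called for the bone marrow lines against it, where these shares were 26.9% and 19.6%. The 3 comparisons share the mesenchymal line.

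Between the origins the differences of GATA probes were under 1 on the log2 scale. Gata2 was 1.51-fold and 1 of the 3 Gata6 probes 1.46-fold lower in the blastocyst lines, and both calls depended on the scaling of the arrays. Gata1, Gata4 and the other Gata6 probes did not pass. These were 2 called probes of 6, where 32.0% of all tested probes were called, 23.0% lower and 9.09% higher in the blastocyst lines, and where the median of all probes was -0.19. The share of called members is near that background.

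Gata6 probe A_44_P445300 averaged 4.48 ± 0.13 (SD) in 3 blastocyst lines and 5.02 ± 0.12 in 3 bone marrow lines, with no overlap between lines. The difference was -0.54 ± 0.13 on the log2 scale (SE, limma adjusted p = 0.0265). The other Gata6 probes did not pass. A_44_P415354 differed by -0.21 ± 0.11 (95% interval -0.49 to 0.07, limma adjusted p = 0.201), and its lines did not overlap between origins either. A_44_P415349 differed by 0.02 ± 0.11 (-0.25 to 0.29, adjusted p = 0.913), and its sign turned under several settings, among them normexp, spike-in scaling and the comparison within slides. The 3 probes named for this gene gave 3 different sizes, and whether each of them reads Gata6 alone was not tested. Within slides 1 and 3, where CL19 was the only bone marrow line, A_44_P445300 differed by -0.58 (limma adjusted p = 0.234, 0 of all probes called).

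Gata2 averaged -4.62 ± 0.10 (SD) in the blastocyst lines and -4.03 ± 0.29 in the bone marrow lines, again with no overlap. The difference was -0.59 ± 0.17 (SE, limma adjusted p = 0.0464). In 3C3, the highest stem cell line, arrays A and B were 0.54 apart, close to the size of that difference. Within slides 1 and 3 the difference was -0.43 (limma adjusted p = 0.281).

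Gata4 averaged 4.84 ± 0.10 (SD) in the blastocyst lines and 5.12 ± 0.16 in the bone marrow lines. The lines did not overlap, yet the difference of -0.28 ± 0.13 (SE) did not pass (95% interval -0.60 to 0.04, limma adjusted p = 0.145). It was 0.0002 after quantile normalization and 0.20 without scaling, so its direction was not settled. Gata1 averaged 0.12 ± 0.30 and 0.00 ± 0.31 (SD). Its difference of 0.12 ± 0.22 (SE) had a 95% interval from -0.43 to 0.66 and an adjusted p of 0.709 by limma. It was -0.12 without array A of RMAPC-1 and -0.10 with spike-in scaling. These intervals do not show that the origins are alike.

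The calls between origins did not hold under most other settings. Scaling by the median of the array, by quantiles, by always detected probes or with normexp called 0 of the 6 probes, and no scaling called 1. Without scaling the called probe was Gata6 A_44_P415349, at 0.50 (limma adjusted p = 0.0244), higher in the blastocyst lines. Scaling to spiked-in transcripts called Gata2 at -0.81 and Gata6 A_44_P445300 at -0.76, with adjusted p-values of 0.0276 and 0.0365. The median of all probes itself moved from -0.19 to 0.28 without scaling and to -0.41 with spike-ins. With the slide pair as a term, and within slides 1 and 3, limma called 0 of all tested probes between origins (7511 and 6085 at an unadjusted p under 0.05). Every call between origins given here, of members and of other genes, is lost in those fits. Sex as a covariate left 0 calls among members, as did leaving out any 1 of the 6 stem cell lines. Gata2 and Gata6 A_44_P445300 were lower in the blastocyst lines under each setting that was run, as the plot of the difference by origin shows for the scalings.

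**Figure D2:**
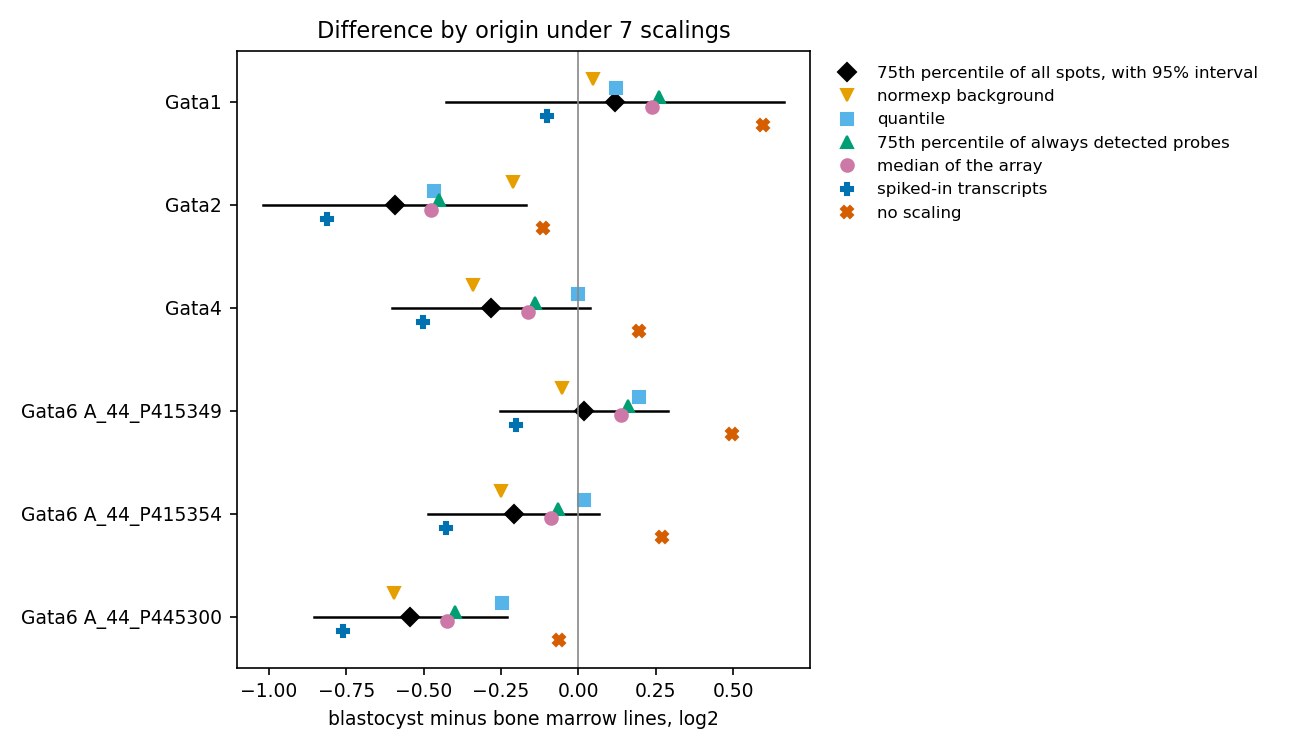
Blastocyst minus bone marrow difference (log2, horizontal axis) of the 6 tested probes (vertical axis) under 7 scalings, with the 95% interval of the main scaling as a black line. For each probe spike-ins give the lowest value and no scaling the highest, while normexp moves some probes up and others down; Gata2 and Gata6 A_44_P445300 stay below 0 and Gata4 reaches 0.20.

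Among lines of the same origin no GATA probe was called by the F-test over arrays, in which arrays A and B served as replicates. The counts were 0 of 6 among blastocyst lines, where 8.28% of all probes were called, and 0 of 6 among bone marrow lines, where 0.635% were. At an unadjusted p under 0.05 there was 1 probe, Gata2 among bone marrow lines (limma adjusted p = 0.305). For Gata4 the order was CL19, 3C3, RMAPC-1, Fi2, Fi1, Wk8 and RClone-2. Arrays of neighbours in that order overlapped except between CL19 and 3C3, between Fi1 and Wk8, and before RClone-2. For Gata1 the order was Fi2, 3C3, Fi1, Wk8, CL19, RMAPC-1 and RClone-2, with a line mean of 0.44 at the top and -0.21 in RMAPC-1. Its arrays separated neighbours only between 3C3 and Fi1 and before RClone-2. For Gata2 RClone-2 came first, followed by 3C3, CL19, RMAPC-1, Wk8, Fi1 and Fi2. Arrays overlapped between CL19 and RMAPC-1 and between Fi1 and Fi2, and separated the other neighbours. For Gata6 A_44_P445300 the order was RMAPC-1, CL19, 3C3, Fi1, Wk8, Fi2 and RClone-2. Arrays separated CL19 from 3C3, 3C3 from Fi1 and Fi2 from RClone-2.

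Gata6 A_44_P415349 was among the steadiest probes over the stem cell lines. Its SD over the 6 lines was 0.07, and 0.662% of tested probes had a smaller one. The SD was 0.14 for A_44_P415354, 0.19 for Gata4, 0.28 for Gata1, 0.32 for Gata6 A_44_P445300 and 0.38 for Gata2. The median over all tested probes was 0.35. Over the 10036 tested probes with a mean above 0 in the stem cell lines it was 0.26. Of those, 1.33% had a smaller SD than A_44_P415349, 12.9% than A_44_P415354 and 29.6% than Gata4. The shares were 53.7% for Gata1 and 63.8% for Gata6 A_44_P445300. The 3 probes named for Gata6 thus spanned 0.07 to 0.32, and whether each reads that gene alone was not tested.

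Arrays A and B of a line mostly gave the same GATA level. For Gata4 they differed by at most 0.21, and for Gata6 A_44_P445300 by at most 0.36. Gata1 in RMAPC-1 was 1.41 lower on array A than on array B, the widest gap of any member spot pair that was above background on both arrays. The same pair gave Gata4 0.21 and Gata6 A_44_P445300 0.36 higher on array A.

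**Figure D3:**
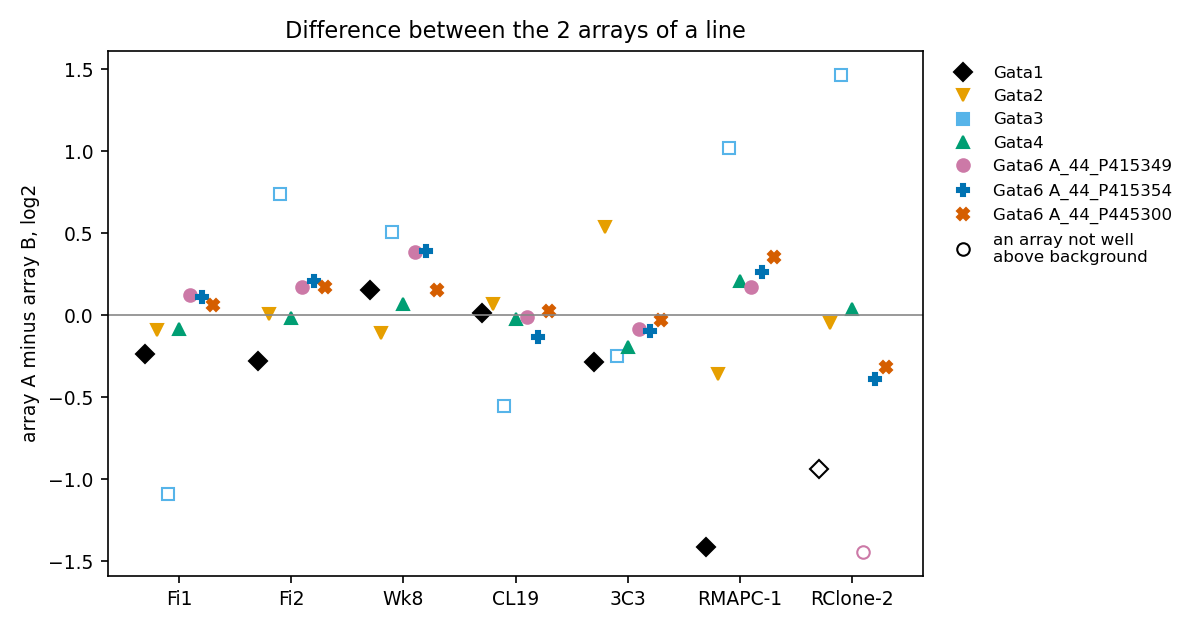
Array A minus array B (log2, vertical axis) for each probe in each line (horizontal axis), with open symbols where 1 or both arrays were not well above background. Filled points lie within 0.54 of 0 except Gata1 in RMAPC-1 at -1.41.

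Few other GATA-type zinc finger genes had a probe: 3 of 6 listed. Trps1, a repressor of GATA-driven genes, was 3.499-fold lower in the stem cell lines (log2 difference -1.81 ± 0.43, SE, limma adjusted p = 0.0164). With normexp that call was lost, and over the other scalings the difference ranged from -2.31 to -0.46. Gatad2a, a subunit of the NuRD chromatin complex, was 1.95-fold higher (0.96 ± 0.23, adjusted p = 0.0169), and no gene of this list was called higher with spike-in scaling. In the bone marrow lines alone its difference of 0.67 did not pass (limma adjusted p = 0.0675). Its relative Gatad2b did not pass at 0.37. None of the 3 was called between origins.

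Partners of GATA factors were measured for 15 of 17 listed genes; Zfpm1 and Mef2c had no probe of that name. Against RClone-2, 7 were higher and 2 lower, beside 25.1% and 22.2% of all probes. The median difference was 0.86 beside 0.04 over all probes. With 3 genes not above background in RClone-2 set at their bound the median was 0.64. The listed partner Spi1, also not above background there, kept its fitted difference of 0.80, since its bound was only 0.84-fold. Klf1, an erythroid factor, averaged 0.04 in blastocyst lines, 0.63 in bone marrow lines and -5.40 in RClone-2, 53.1-fold higher in the stem cell lines (5.73 ± 0.33, SE, limma adjusted p = 5.96e-05). Lmo2, the bridging protein of the erythroid GATA complex, was at least 22.0-fold higher (fitted 5.62 ± 0.70, adjusted p = 0.00141). Tal1, the helix-loop-helix partner in that complex, was 1.97-fold higher (0.98 ± 0.15, adjusted p = 0.00348), a call that 4 of 6 other scalings made. With spike-in scaling 3 partners were called higher and with normexp 4. Lmo4, a relative of Lmo2, was 7.06-fold lower (-2.82 ± 0.20), and Runx1, a factor of blood formation, was 6.999-fold lower (-2.81 ± 0.63, adjusted p = 0.0132). For Runx1 the blastocyst lines alone differed from RClone-2 by -4.98 (limma adjusted p = 0.002). The bone marrow lines alone differed by -0.63 and did not pass (adjusted p = 0.479). Zfpm2, which binds Gata4, was at 0.01 ± 0.18 and did not pass.

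Between origins the calls among partners were 3 upward and 3 downward in blastocyst lines, beside 9.09% and 23.0% of all probes. The median was -0.21 beside -0.19 over all probes. Ldb1, which joins Lmo2 to distant sites, was 1.76 ± 0.18 higher on the log2 scale (SE, limma adjusted p = 0.00544), and its call held under all 6 other scalings. Like the calls of Runx1 and Fli1, it was lost with the slide pair term and within slides 1 and 3. Fli1, an ETS factor of megakaryocytes, was 1.69 ± 0.45 higher (adjusted p = 0.0354), while its signal was above background on 5 of 6 blastocyst and 1 of 6 bone marrow arrays, and 4 of 6 other scalings called it. Runx1 was 4.35 ± 0.47 lower (adjusted p = 0.00581), with means of -0.01 in blastocyst lines, 4.34 in bone marrow lines and 4.97 in RClone-2. Nkx2-5, a heart factor, stood at -0.91 ± 0.40 and did not pass.

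Most listed endoderm targets of Gata4 and Gata6 were higher in the stem cell lines. Of 18 with a probe, 15 were higher, 0 were lower and 3 did not pass, beside 25.1% higher and 22.2% lower over all probes. The median difference was 7.14, or 6.21 with dim genes at their bound. This list overlaps the markers used above to check the cell type, so it is not independent of that check. Lama1, a basement membrane laminin, was 2180-fold higher (11.09 ± 0.28, SE, limma adjusted p = 2.72e-06). Sox7, a hypoblast factor, was at least 432.5-fold higher. Amn and Lrp2, endocytic receptor proteins of visceral endoderm, were 947-fold and at least 182-fold higher. Hnf4a, an endoderm and liver factor, stood at -0.42 ± 0.15 with an adjusted p of 0.0669, and Dab2 and Bmp2, the other 2 that did not pass, stood at 1.88 ± 0.63 and -1.36 ± 0.45. Under other scalings 13 to 16 of the 18 were called higher and 0 to 2 lower.

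Between origins the calls among endoderm targets were 3 upward and 4 downward in blastocyst lines, with a median of -0.24. Over all probes 9.09% were higher and 23.0% lower with a median of -0.19, so the downward share and the median are near those of all probes. Amn at -3.76 ± 1.15, Ihh at -2.86 ± 0.96, Lrp2 at -2.56 ± 0.81 and Cubn at -1.84 ± 0.64 (log2, SE) were the largest differences and did not pass, at limma adjusted p-values of 0.0518 to 0.073. Lama1 was higher in the blastocyst lines by 1.011 ± 0.21 (adjusted p = 0.0202). The counts moved with the scaling, to 6 higher and 0 lower without scaling and to 3 and 7 with spike-ins.

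Of the listed heart and gonad targets of Gata4 and Gata6, 13 had a probe and 12 were tested. Of these 4 were higher and 1 lower against RClone-2, beside 25.1% and 22.2% of all probes. Myh6, a heart myosin, was at least 23.1-fold higher. Inha, the alpha subunit of inhibin, was 46.7-fold higher (5.54 ± 0.38, SE, limma adjusted p = 0.000117) and the 1 gene of the list called between origins, at 1.61 ± 0.29. In RClone-2 Inha was above background on 1 of 2 arrays, so the size of the fold against it is uncertain. Tnnt2, a troponin, was 42.0-fold higher and Nppb, a natriuretic peptide, 6.54-fold. Star, which carries cholesterol into mitochondria, was 3.16-fold lower (-1.66 ± 0.39, adjusted p = 0.0161). That call was lost with normexp, where 0 of the list were lower, and its difference ranged from -2.16 to -0.70 over the other scalings. The remaining 7 did not pass. The median was 0.49, beside 0.04 over all probes, and -0.01 with spike-in scaling.

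Of 18 listed blood targets of Gata1 and Gata2, 15 had a probe. Of these 15 genes 7 were tested, of which 3 were higher and 1 lower than in RClone-2, beside 25.1% and 22.2% of all probes. Another 6 were above background on no array. The 6 were the globin Hbb, Ank1 of the red cell membrane, the platelet genes Pf4 and Gp1ba, and Ms4a2 and Fcer1a of mast cells. Kit, a receptor of progenitor and germ cells, was at least 19.96-fold higher in the stem cell lines. Alas2, the erythroid enzyme of haem synthesis, was 6.39-fold higher (2.68 ± 0.41, SE, limma adjusted p = 0.0032). Hdc, the histamine enzyme, was 4.16-fold higher (2.06 ± 0.60, adjusted p = 0.0325), and 2.44 ± 0.45 higher in blastocyst than in bone marrow lines. Against RClone-2 the blastocyst lines alone differed by 3.28 (limma adjusted p = 0.00799). The bone marrow lines alone differed by 0.84 and did not pass (adjusted p = 0.326). Gp9, a platelet glycoprotein, was 2.17-fold lower. The median over the 7 was 0.07, beside 0.04 over all probes. With normexp 1 of the 7 was called higher and 0 lower.

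Markers of blood cells stood as follows beside the Gata1 signal. Of 7 markers 6 had a probe, and their summed relative signal was 0.375 to 0.652 in the stem cell lines and 0.395 to 0.43 in RClone-2. Itgam and Cd3e were above background on no array, and Ptprc, which marks white cells, on 5 of the 12 stem cell arrays. Lyz2 was above background on some arrays of each group. Cd68 of macrophages was above background on all 14 arrays and higher in the stem cell lines (0.96 ± 0.26, SE, limma adjusted p = 0.0268). Csf1r, a receptor of macrophages, was also above background on all 14 and was lower (-1.18 ± 0.35, adjusted p = 0.0349). In the blastocyst lines alone its difference of -0.79 did not pass (limma adjusted p = 0.129). The erythroid and megakaryocytic list, 6 of 8 measured, summed to 0.936 to 3.22 and to 0.153 to 0.155, with Hbb and Pf4 never above background. In the stem cell lines Klf1 made the largest part of this sum. The list did not move as a whole. Epor did not pass against RClone-2 (0.055 ± 0.18, limma adjusted p = 0.827) and Gp9 was lower (-1.12 ± 0.22, adjusted p = 0.0084). Klf1 and Alas2 are in both this list and those above. Their part in the Gata1 result was not tested.

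Of 8 endothelial targets of Gata2 with a probe 6 were tested. Of these 4 were higher and 1 lower against RClone-2, beside 25.1% and 22.2% of all probes. The median was 2.45, or 1.73 at the bounds. Pecam1, an adhesion protein, was at least 16.3-fold higher, Tek, a vessel receptor, at least 15.9-fold, and Edn1, the endothelin peptide, at least 4.67-fold. Nos3, the endothelial nitric oxide synthase, was at least 1.63-fold lower. With normexp 2 were called higher and 0 lower. Between origins 4 of the 6 were higher in the blastocyst lines and 0 lower, beside 9.09% and 23.0% of all probes. The median was 1.37 beside -0.19 over all probes. Vcam1, an adhesion molecule, differed by 3.54 ± 0.46 and Edn1 by 1.96 ± 0.43 (SE, limma adjusted p = 0.00769 and 0.0226), both called under all 6 other scalings and lost with the slide pair term and within slides 1 and 3. The summed signal of 6 endothelial markers was 1.25 to 3.05 in blastocyst lines, 0.32 to 0.817 in bone marrow lines and 0.0765 in RClone-2, and its part was not tested. Pecam1, Tek, Kdr and Emcn are in both lists. Cdh5, a defining marker of endothelium, did not pass in either comparison.

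Of the genes known as targets or neighbours of Gata3, 13 had a probe and 7 were tested. Of these 4 were higher and 1 lower than in RClone-2, beside 25.1% and 22.2% of all probes. Il4, Il5, Elf5, Foxa1 and Esr1 were above background on no array. Th, tyrosine hydroxylase, was at least 2468-fold higher in RClone-2, at 5.04 against no signal above background in any stem cell line. Ret, a receptor tyrosine kinase, was 336.5-fold higher in the stem cell lines (8.39 ± 0.25, SE, limma adjusted p = 4.54e-06). In RClone-2 Ret was above background on 1 of 2 arrays, so the size of that fold is uncertain. Tfap2c and Eomes, factors also of trophoblast, were at least 25.0-fold and at least 7.98-fold higher. Tfap2c was 3.77 ± 0.58 lower in blastocyst than in bone marrow lines (adjusted p = 0.0102). Of 8 trophoblast markers 6 had a probe. Ascl2, a trophoblast factor, was 25.9-fold lower in the stem cell lines (-4.70 ± 0.54, adjusted p = 0.00102). Cdx2 at -0.32 and Hand1 at -0.30 did not pass, and Elf5 was above background on no array. The list summed to 0.293 to 0.526 in blastocyst lines, 0.875 to 2.19 in bone marrow lines and 1.49 to 1.66 in RClone-2.

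**Figure D4:**
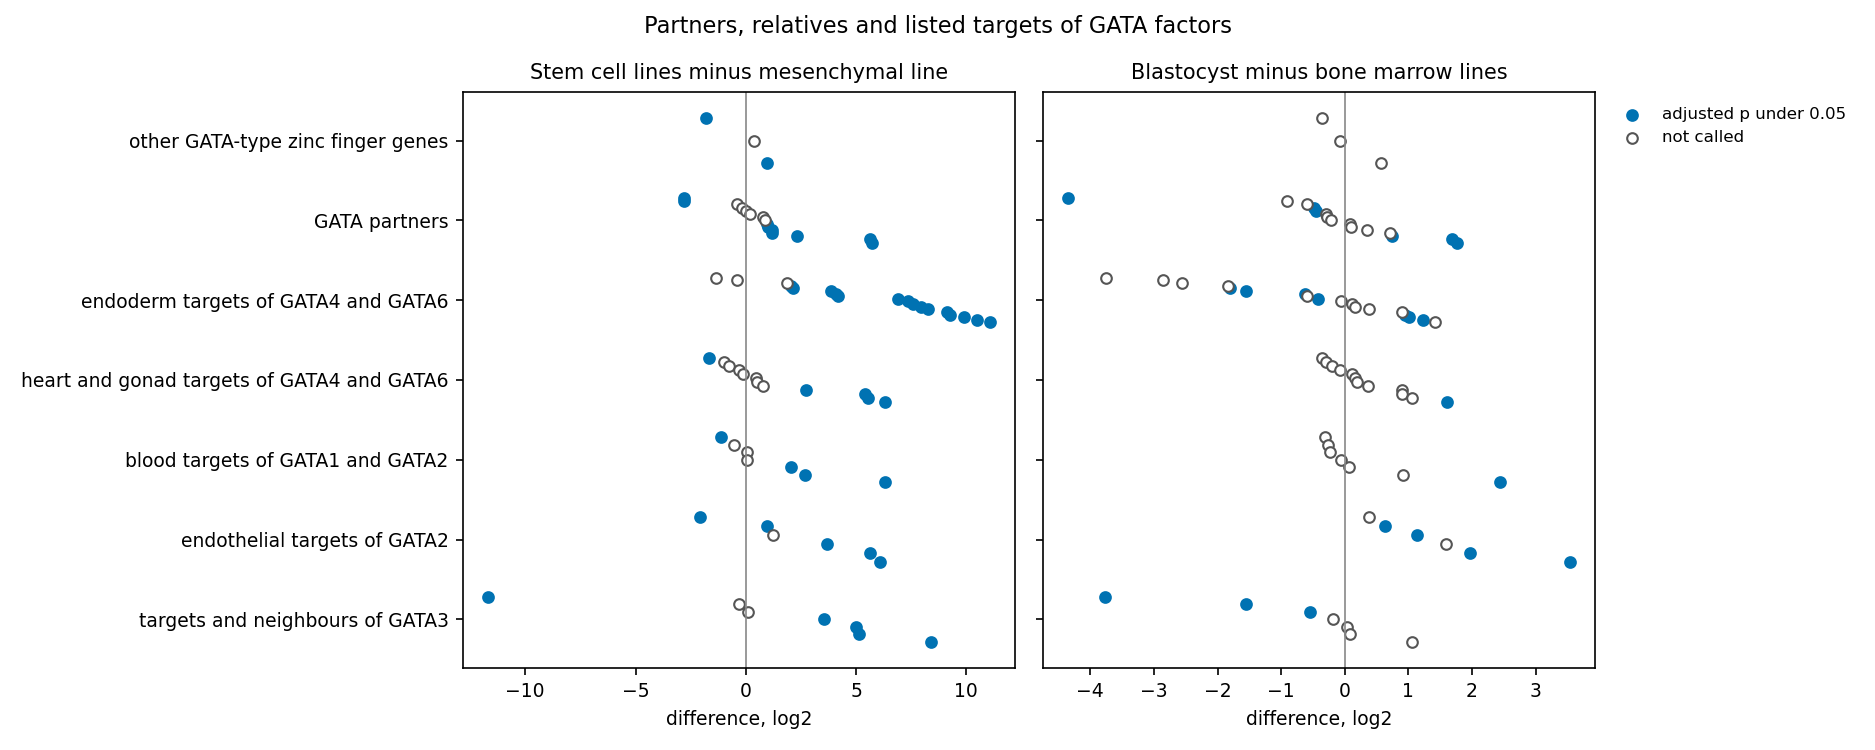
Differences on the log2 scale (horizontal axes) of the tested genes of 7 lists (vertical axis), for stem cell lines minus the mesenchymal line on the left and blastocyst minus bone marrow lines on the right, with filled points called at an adjusted p under 0.05. The endoderm targets reach 11.09 on the left, where Th of the Gata3 list lies at -11.67, and Runx1 is the lowest point on the right at -4.35.

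The letters AGATAA or AGATAG, and TGATAA or TGATAG, were searched on both strands of the 250 bases before the start of genes, in RefSeq sequence of build GRCr8. Of 33469 such windows, 27.0% held at least 1 match. A match is a description of the sequence, and no binding was measured. The windows of Gata1, Gata2, Gata3 and Gata6 held 0 matches. No window of Gata4 was found in the sequence set, so Gata4 was not searched. In the lists the windows with a match were 6 of 14 for endoderm targets, 8 of 13 for heart and gonad targets, 7 of 11 for blood targets, 3 of 6 for endothelial targets, 3 of 11 for partners and 1 of 7 for the Gata3 list. The windows of Klf1 and Lama1 are shown because each gene had the largest difference from RClone-2 among partners or endoderm targets whose window held a match, and they were chosen after their values were seen. Capitals mark the match. The Klf1 window is chr19:40158652-40158901, minus strand, and its match begins 26 bases before the start and is TGATAA read on the other strand. The Lama1 window is chr9:115139298-115139547, plus strand, and its match TGATAA begins 202 bases before the start.
Klf1: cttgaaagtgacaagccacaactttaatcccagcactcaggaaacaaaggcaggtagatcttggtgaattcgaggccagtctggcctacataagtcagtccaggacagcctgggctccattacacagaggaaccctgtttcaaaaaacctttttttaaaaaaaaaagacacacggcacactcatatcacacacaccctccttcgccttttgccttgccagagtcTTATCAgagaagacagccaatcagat
Lama1: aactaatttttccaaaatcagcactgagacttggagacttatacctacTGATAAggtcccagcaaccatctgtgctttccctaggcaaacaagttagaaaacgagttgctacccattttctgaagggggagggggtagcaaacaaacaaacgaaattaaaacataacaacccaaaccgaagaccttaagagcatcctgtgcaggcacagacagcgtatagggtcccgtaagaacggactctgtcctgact

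Genes with the profile most like each member over the 7 lines were found among 12533 others by the root mean square difference of centred line means, with no test. With 6 lines near one level and RClone-2 apart, many genes share such a shape. For Gata1 they were Dmtn, Pdgfra, Inpp5d, Obsl1 and Prss30, at 0.27 to 0.31. For Gata4 they were Sslp1l1, Adm2, Plac8, Mtmr7 and Itm2a, at 0.11 to 0.19. For Gata6 A_44_P445300 they were Rhox5, Slc39a4, Lad1, Comp and Gprc5c, at 0.13 to 0.21, and A_44_P415354 shared Rhox5, Lad1 and Gprc5c with it. For A_44_P415349 they were Tcfl5, Ttc39a, Celsr1, Klb and Esrp1, at 0.08 to 0.17. For Gata2 they included Rhbdf2, Apoo, Akap3 and Hsd17b1, at 0.10 to 0.13.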

How the data were processed

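Spots were read by the authors in Agilent Feature Extraction 10.7.3.1, per the file headers. Each deposited scanner table holds an intensity per spot (processed, mean and local background), with no scaling across arrays. The deposited flags, other values, are 0 or 1. Log2 values in the deposited series table, when sorted, equalled the log2 processed signal with a largest difference of 0 on all 14 arrays. From these, log2 processed signals minus the 75th percentile of each array were averaged over the arrays of a line. The filter kept 29309 of 41012 probes, those that in 1 or more lines passed the background flag on arrays A and B alike. Of the probe names, 20735 were matched to a symbol in a RefSeq table of build GRCr8, changed or not. The other 20277 found no match and kept the deposited name. Line means of 3 blastocyst, 3 bone marrow and 1 mesenchymal line went into lmFit and eBayes of limma 3.58.1 (R 4.3.3), which left 4 residual degrees of freedom, with p-values adjusted by Benjamini-Hochberg over all tested probes at a threshold of 0.05. In contrasts with the mesenchymal line it is assumed to vary like the other lines. P-values measure the spread between these lines only, and the number of lines limits the precision.

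Lists took the brightest tested probe of a gene. All probes of the 5 members are named, with up to 4 genes per list by size of difference in each main contrast, 6 fixed partners and relatives, and the 5 most alike genes per tested probe, of which 1 is not reported here. The members and lists were chosen with earlier results of these data known. Alternatives changed background, scaling, filter, block terms, test and the lines or arrays used. The fit was tested on simulated data. Figures were drawn with matplotlib 3.10.9.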

Additional observations from a re-analysis of the deposited data

Results flagged for a closer look

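Gata2 (A_44_P403866) differed from the mesenchymal line by different amounts in blastocyst and bone marrow lines. The difference between those differences was -0.5941 on the log2 scale and equals the direct contrast of the origins (limma adjusted p = 0.0464). Lower values were seen in 3 of 3 blastocyst lines than in any bone marrow line.

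Gata6 (A_44_P445300) was singled out in the same way, at -0.5427 (limma adjusted p = 0.0265), with no overlap between the lines of the origins. The other Gata6 probes gave -0.21 and 0.02. In 14 groups of 6 arrays, 2 for each of 7 probes, no array stood far from the other 5.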

How the results depend on the processing

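The calls against the mesenchymal line stood at 6 of 6 probes in nearly all settings and ranged from 5 to 7. With no filter 7 of 7 passed, Gata3 included, although it was above background on 1 array. Gata2 lost its call with normexp in 3 contrasts (-0.77, -0.88 and -0.67, limma adjusted p = 0.192, 0.17 and 0.3) and within slides 2 and 4 for the bone marrow lines (-1.34). Between origins 2 probes were called. The count was 0 with normexp, quantile normalization, always detected probes, the array median, a slide block, a term for the slide pair, within slides 1 and 3, without the A arrays, without the B arrays, with sex as a covariate and against a fold of 1.5. It was 1 without scaling and with a trend, and 0 to 2 when 1 line or array was left out. Over all probes the calls between origins ranged from 0 to 12395, against 9391, and calls higher in the blastocyst lines were 28.4% of calls, against 84.8% without scaling, 16.2% with spike-ins and 41.0% to 46.2% with normexp, quantile, always detected probes and the median. Of calls against the mesenchymal line by all stem cell lines 53.1% were higher, and 28.3% with spike-ins, 63.7% without scaling. Signs turned in these uncalled differences between origins. Gata4 was 0.0002 with quantiles and 0.20 without scaling. Gata6 A_44_P415354 was 0.018 and 0.27. Gata1 was -0.10 with spike-ins, -0.10 without the A arrays and -0.12 to 0.35 when 1 line or array was left out. Gata6 A_44_P415349 was -0.052 with normexp, -0.20 with spike-ins, -0.077 with the slide block, with the slide pair term and within slides 1 and 3, -0.083 without the A arrays, and -0.029 to 0.065 when 1 line or array was left out. The cause was not tested.

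The replicate block of the array letter, with line as a random block, gave 2 called probes between origins and 6 in each contrast with the mesenchymal line, with 11950 probes called between origins in all. The letters did not pair the arrays, since A minus B of different lines correlated at -0.24 to 0.15 and 1 of 21 pairs was over 0.1. With line as a random block and no letter Gata4 also passed between origins, at -0.28 (limma adjusted p = 0.0398). The series table as a source of values was not run, since its row numbers matched no probe column. Dim signal limits Gata2 and Gata3.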
